A study of Homo sapiens with 4 samples.

Results

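The genes described here are the numbered ZNF genes of human chromosome 19, which encode proteins with tandem C2H2 zinc fingers, measured in MTAC-P and PC9 lung cancer cells. A gene was taken where the array annotation gave a probe set the single symbol ZNF followed by a number and the gene lies on chromosome 19 in the reference annotation. There were 226 such genes with 494 probe sets. Where a gene had several probe sets, the brightest over the 4 arrays stood for it, and 166 genes reached the level filter of 4.14 on the log2 scale, the 25th percentile over the whole table. These 166 are the members, out of 14970 genes tested in all, and the other 60 genes lay below that level. MTAC-P is labelled as a resistant human lung cancer line that was established with mild TKI (tyrosine kinase inhibitor) treatment. The labels give no inhibitor, parent line or number of clones for it, nor any drug at the time of collection. PC9 is an EGFR-mutant lung adenocarcinoma line. Total RNA of each line was measured on 2 one-colour arrays, and both lines were grown in DMEM with serum. The comparison asks how the resistant line differs from PC9. The labels call the arrays duplicates without naming separate cultures, so p-values measure only the spread between these arrays, which may be technical, and an array value cannot tell fewer expressing cells from less RNA per cell.

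Chromosome 19 holds the largest family of human zinc finger genes, arranged in clusters of tandem copies. Most encode a KRAB domain beside the fingers: the fingers bind DNA, many of them at transposable elements, and KRAB recruits the scaffold protein TRIM28, the histone methyltransferase SETDB1 and heterochromatin protein HP1, which silence the bound site. Because neighbouring copies are alike in sequence, an array probe set can match the transcripts of several of them. In Affymetrix naming, such probe sets end in _x_at or _s_at. They represented 52 of the 166 members (39 and 13), against 114 members with probe sets ending in _at or _a_at, and values of the 52 may mix several genes.

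Carcinoma epithelium markers were high in both lines, with 6 of 6 above the level filter and mean values from 10.35 to 14.42 in MTAC-P and from 10.89 to 14.30 in PC9. The 4 lung markers NKX2-1, NAPSA, SFTPB and SFTPC had means from 4.72 to 5.10 in MTAC-P and from 4.71 to 4.95 in PC9, all above the filter but close to it, so the labelled tissue was barely seen in its defining markers. The 11 leukocyte, endothelial and fibroblast markers had means of at most 5.19 in MTAC-P and 5.49 in PC9. Array medians over all 49386 probe sets lay between 4.85 and 4.88.

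No member passed the test of the lines, which did not use the replicate number, and as many members were higher as lower in MTAC-P. With the replicate number as a block, 27 of the 166 members passed, as did 2079 of the 14970 tested genes. The labels do not say that the numbers pair arrays of the lines, so the test without the block is given below. The adjusted p threshold of 0.05 in limma, with Benjamini-Hochberg adjustment over all tested genes, was passed by 0 of the 166 members, against 0.02% of all tested genes. The lowest limma adjusted p of a member was 0.0971, that of ZNF805. At an unadjusted limma p under 0.05 there were 23 members, 13.9%, against 18.9% of all tested genes. Of the 166 members, 5 were called higher and 18 lower in MTAC-P. Over all tested genes, 7.76% were called higher and 11.1% lower. The lower share of the members was thus near the background and the higher share below it. Leaving out MTAC-P replicate 1 or MTAC-P replicate 2 changed the count of 23 and its split. Such a fit has 1 array in a line, so its calls are not given here.

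Log2 differences of MTAC-P minus PC9 ran from -1.43 to 0.79 over the members, with 83 higher and 83 lower, where 53.8% of all tested genes were higher. Their median was 0.00080, against 0.031 over all tested genes, and its sign turned under several settings, among them centring on the median (-0.013) and leaving out MTAC-P replicate 1 (-0.071). The middle range of the members, from the lower to the upper quartile, was -0.31 to 0.18, against -0.22 to 0.23 over all tested genes. At least 2-fold differences were seen for 3 members, all lower in MTAC-P, and for 0 higher, where the background was 1.62% lower and 0.401% higher. The 2 MTAC-P arrays did not overlap the 2 PC9 arrays for 72 members, 43.4%, against 53.2% of all tested genes. Out of all 166 members, 34 did not overlap and were higher in MTAC-P, where 28.3% of all tested genes did so. Another 38 of the 166 did not overlap and were lower, against 24.9% of all tested genes. The higher share of the members was below the background and the lower share near it.

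The other genes of the same chromosome had a different spread. Among 929 other chromosome 19 genes, 670 (72.1%) were higher in MTAC-P and the median was 0.14, where 83 of the 166 ZNF members and 53.8% of all tested genes were higher. The 196 ZNF genes on other chromosomes had a median of -0.052 and 93 of them (47.4%) were higher. These are counts on the same 4 arrays, and the difference between the lists was not tested.

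**Figure D1:**
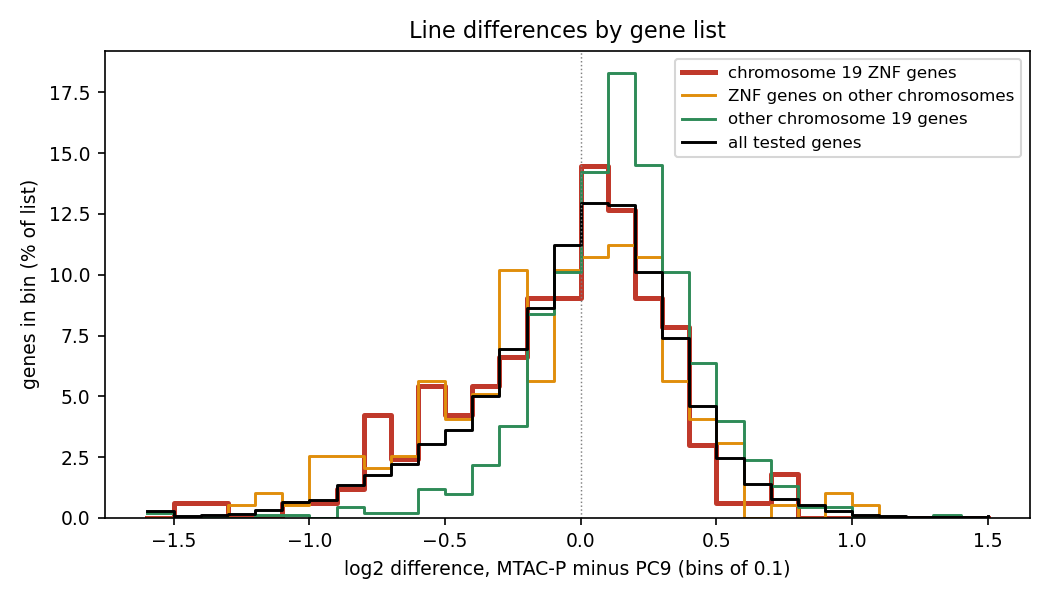
Share of genes (percent of each list, y axis) in bins of 0.1 of the log2 difference of MTAC-P minus PC9 (x axis) for the 166 chromosome 19 ZNF genes, 196 ZNF genes on other chromosomes, 929 other chromosome 19 genes and all 14970 tested genes; the outermost bins hold everything beyond them. The ZNF genes of chromosome 19 are centred near 0 (median 0.00080), and the other chromosome 19 genes lie to the right (median 0.14).

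ZNF71, also known as EZFIT and described as induced by tumour necrosis factor in endothelial cells, had the largest positive difference among members whose arrays did not overlap. Its log2 values were 6.27 and 6.63 in MTAC-P, against 5.70 and 5.62 in PC9. Both MTAC-P arrays lay above both PC9 arrays, by a mean log2 difference of 0.79 (SE 0.18, limma adjusted p = 0.125). A second ZNF71 probe set differed by only 0.15.

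ZNF416 had 8.45 and 8.50 in MTAC-P, against 7.73 and 7.71 in PC9. Its duplicates differed far less than the lines, and its difference of 0.75 (95% interval 0.39 to 1.11, limma adjusted p = 0.112) stayed between 0.73 and 0.78 when 1 array was left out. ZNF581 had 10.12 and 10.24 in MTAC-P, against 9.70 and 9.71 in PC9. Its difference was 0.47 (95% interval 0.10 to 0.84), and it ranged from 0.41 to 0.53 when 1 array was left out. ZNF416 and ZNF581 each have 1 probe set on the array.

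For ZNF880, ZNF530, ZNF8 and ZNF134 the size of the difference rested on PC9 replicate 2. ZNF880 had 7.40 and 7.14 in MTAC-P, against 7.07 and 5.99 in PC9, a difference of 0.74 that was 0.20 without PC9 replicate 2. ZNF530 had 7.87 and 7.65 in MTAC-P, against 7.41 and 6.80 in PC9, a difference of 0.65 that was 0.35 without that array. In all 4 genes PC9 replicate 2 was the lowest of the arrays. ZNF8, with 8.78 and 8.92 in MTAC-P and 8.74 and 7.97 in PC9, differed by 0.50 and by 0.11 without PC9 replicate 2. ZNF134, with 8.32 and 8.30 in MTAC-P and 8.19 and 7.54 in PC9, differed by 0.45 and by 0.12 without it.

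The remaining 3 of the 10 named higher members also depended on single arrays. ZNF575 had 6.48 and 6.26 in MTAC-P, against 5.998 and 5.57 in PC9, a difference of 0.59 that was 0.37 without PC9 replicate 2. The other ZNF575 probe set, also above the filter, differed by only 0.0043. ZNF296, known in mouse embryonic stem cells as a partner of Klf4, had 7.31 and 6.73 in MTAC-P, against 6.59 and 6.55 in PC9, a difference of 0.45 that was 0.16 without MTAC-P replicate 1. ZNF444, a SCAN domain protein also called EZF2, had 6.78 and 7.34 in MTAC-P, against 6.56 and 6.77 in PC9, a difference of 0.39 that was 0.11 without MTAC-P replicate 2. In ZNF444 the lower MTAC-P value was only just above the higher PC9 value, and its other probe set above the filter differed by only 0.031.

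Among the lower members, ZNF805 had the lowest p, and ZNF181 had duplicates close together in both lines. The log2 values of ZNF805 were 5.90 and 5.61 in MTAC-P, against 7.08 and 7.12 in PC9. Its difference was -1.34 (SE 0.17, limma adjusted p = 0.0971) and lay between -1.48 and -1.19 when 1 array was left out. The probe sets of ZNF805 did not move as one, however: the 4 of them, all above the filter, ranged from -1.34 to 0.11, with a mean of -0.45. ZNF181 had 4.26 and 4.31 in MTAC-P, near the filter, against 5.16 and 5.09 in PC9. The arrays of ZNF181 were well apart, with a difference of -0.85 (SE 0.15, limma adjusted p = 0.108) on its only probe set, and values from -0.88 to -0.81 when 1 array was left out.

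ZNF83 had the largest difference of all members, and also the largest gap between duplicates. It had 6.69 and 5.24 in MTAC-P, against 7.55 and 7.23 in PC9, a difference of -1.43 (SE 0.44, limma adjusted p = 0.175). Both MTAC-P arrays were lower than both PC9 arrays, but the difference became -2.15 with MTAC-P replicate 1 left out and -0.70 with MTAC-P replicate 2 left out. Its probe set ends in _x_at. The other probe set of ZNF83, with a suffix of the single-gene kind, differed by -1.45.

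ZNF160 and ZNF761, neighbours of ZNF83 in the same cluster, were also represented by _x_at probe sets. ZNF160 had 6.32 and 5.36 in MTAC-P, against 7.10 and 6.59 in PC9, a difference of -1.01 that was -0.53 without MTAC-P replicate 2. The other ZNF160 probe set, below the level filter, differed by 0.015. ZNF761 had 7.14 and 6.66 in MTAC-P, against 7.88 and 7.48 in PC9, a difference of -0.77 (SE 0.23). No array of either gene crossed between the lines. The second probe set of ZNF761 above the filter differed by 0.35, in the opposite direction, so the direction of ZNF761 depends on the probe set.

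ZNF331, an imprinted KRAB zinc finger gene, had 7.26 and 7.38 in MTAC-P, against 7.93 and 8.57 in PC9. The difference was -0.93 (SE 0.24, limma adjusted p = 0.137) and -0.61 without PC9 replicate 2. All 4 probe sets of ZNF331 were lower in MTAC-P, from -1.17 to -0.52.

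The other named lower members lie elsewhere on the chromosome. ZNF507 had 6.19 and 5.81 in MTAC-P, against 6.80 and 6.70 in PC9, a difference of -0.75 (SE 0.19), and its 5 probe sets ranged from -1.02 to -0.079. ZNF700 had 5.17 and 4.64 in MTAC-P, against 5.51 and 5.94 in PC9, a difference of -0.81. ZNF573 had 4.50 and 4.05 in MTAC-P, against 5.10 and 4.99 in PC9, a difference of -0.77, with its MTAC-P values close to the filter. The other probe sets of ZNF573, both below the filter, differed by 0.15 and -0.0074. In ZNF507, ZNF700 and ZNF573, as in ZNF121, every MTAC-P array was lower than every PC9 array. ZNF121 had 6.38 and 5.54 in MTAC-P, against 6.84 and 6.56 in PC9, a difference of -0.74 that was -0.32 without MTAC-P replicate 2.

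**Figure D2:**
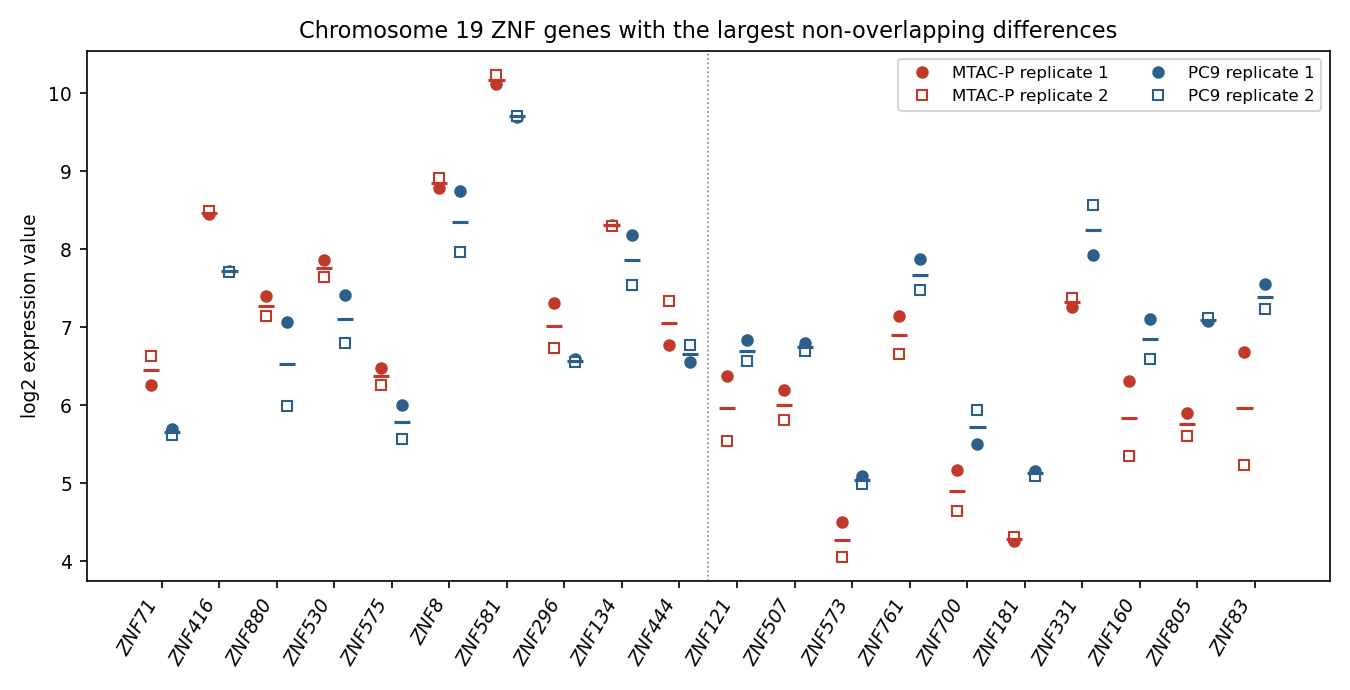
Log2 expression values (y axis) of the 10 members with the largest positive (left of the dotted line) and the 10 with the largest negative difference (right) among members whose arrays did not overlap; points are arrays, with MTAC-P left of PC9 for each gene, and bars are means of the 2 arrays of a line. ZNF416, ZNF581 and ZNF181 have duplicates close together, while ZNF83 and ZNF880 have 1 array far from its duplicate.

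Leaving out 1 array moved the difference by more than 1.5 times for 11 of these 20 genes and turned the sign of 0. Above the filter, 12 of the 20 had several probe sets, and in 4 of the 12, ZNF8, ZNF134, ZNF761 and ZNF805, the probe sets had both signs. Over all members, 85 had several probe sets above the filter. All probe sets had the same sign in 51 of them, and signs were mixed in 34.

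**Figure D3:**
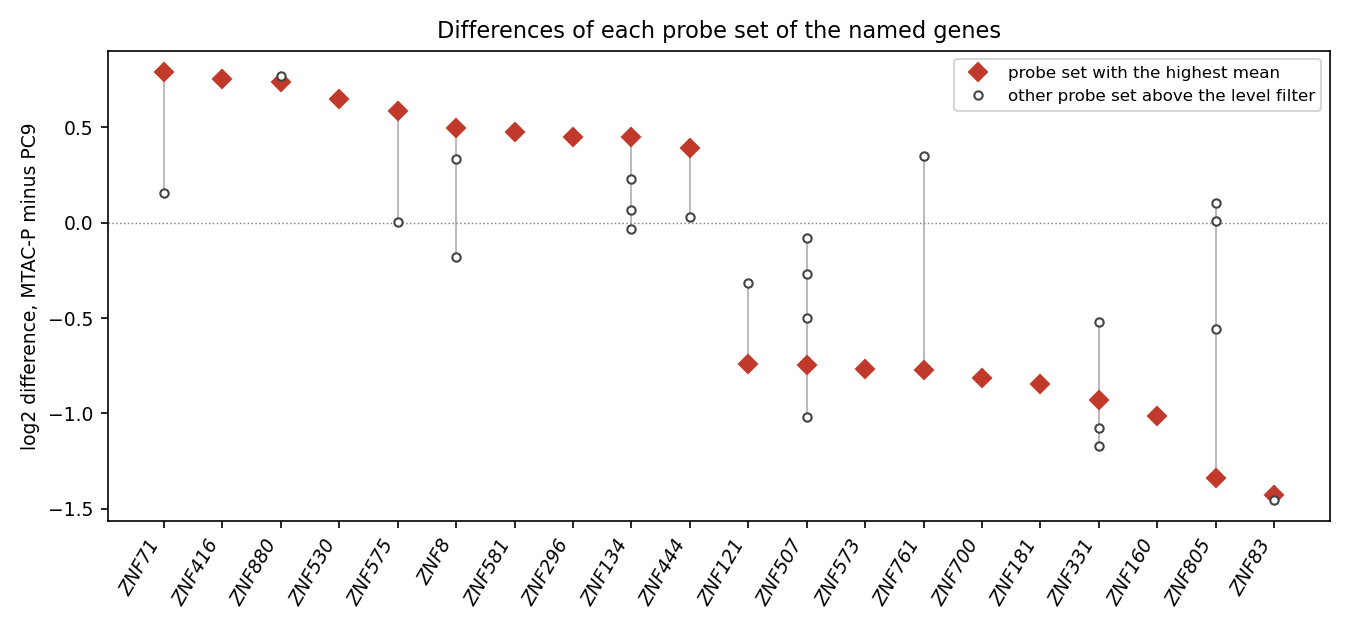
Log2 difference of MTAC-P minus PC9 (y axis) for every probe set above the level filter of the same 20 genes; filled diamonds are the probe sets with the highest mean, open circles the others, and grey lines join probe sets of a gene. The 4 probe sets of ZNF331 are all below 0, whereas those of ZNF805 run from -1.34 to 0.11.

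The 5 members with the highest means were ZNF544, ZNF581, ZNF562, ZNF274 and ZNF146. Probe sets differ in how strongly they bind, so their levels do not rank RNA amounts. ZNF544 had 10.22 and 10.36 in MTAC-P, against 10.10 and 9.96 in PC9, a difference of 0.26, and its 4 probe sets, of which the one used ends in _x_at, ranged from -0.045 to 0.37. ZNF562 had 9.93 and 9.46 in MTAC-P, against 9.91 and 9.97 in PC9, and these overlapped. ZNF274, which binds the 3' ends of zinc finger genes and recruits SETDB1 to them, had 9.61 and 9.87 in MTAC-P, against 9.83 and 9.64 in PC9, a difference of 0.0050 (95% interval -0.42 to 0.43). ZNF146, a protein made almost entirely of fingers with no KRAB domain, had 9.63 and 9.10 in MTAC-P, against 10.04 and 9.91 in PC9. Its arrays did not overlap, with a difference of -0.61 (SE 0.21, limma adjusted p = 0.213), and its 3 probe sets ranged from -0.72 to -0.61. Without MTAC-P replicate 2 the difference of ZNF146 was -0.34.

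At the other end, the 3 members just inside the level filter were ZNF599, ZNF221 and ZNF816, and the 3 genes just outside it were ZNF540, ZNF699 and ZNF582. ZNF599 had 4.26 and 3.99 in MTAC-P, against 4.24 and 4.14 in PC9. ZNF540 had 3.73 and 4.38 in MTAC-P, against 4.14 and 4.25 in PC9. Of the 166 members, 58 had a mean under 5, and there the median absolute difference was 0.15, as for all tested genes at that level (0.15). The 83 members between 5 and 8 had 31 higher and 52 lower in MTAC-P, with a median of -0.14, against 0.015 for all tested genes at that level. The 25 members at 8 or more had 17 higher and 8 lower (median 0.14, against 0.035). Level and difference had a Pearson's r of 0.020 over the 166 members, which share arrays and probe-set design.

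The 2 largest clusters of neighbouring genes had medians on different sides of 0, a difference that was not tested. Members were grouped into clusters wherever consecutive ZNF genes of the annotation (GRCh38.p14) lay within 1 Mb of each other, which gave 15 clusters, 9 of them with at least 5 members and 158 members together. In the cluster from ZNF628 to ZNF446, the last of the chromosome, 35 of 49 members were higher and 14 lower in MTAC-P (median 0.11). In the neighbouring cluster from ZNF175 to ZNF331, 10 of 31 were higher and 21 lower (median -0.17). The signs of both medians were the same under all settings run, with medians from 0.066 to 0.17 and from -0.50 to -0.095. Over the 929 other chromosome 19 genes 72.1% were higher (median 0.14), against 53.8% of all tested genes. The lean of the ZNF628 to ZNF446 cluster to higher values was thus also seen in the rest of the chromosome.

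In the ZNF628 to ZNF446 cluster, 15 members (30.6%, against 28.3% of all tested genes) had arrays that did not overlap and were higher in MTAC-P, among them ZNF71, ZNF416, ZNF530, ZNF8, ZNF581, ZNF134 and ZNF444. Another 8 (16.3%, against 24.9%) were lower, among them ZNF805. The share of higher members was thus near the background. With a gap of 0.5 Mb the cluster split in a pair, from ZNF628 to ZNF835 with 10 of 12 higher and from ZNF264 to ZNF446 with 25 of 37 higher. The 20 tested genes of other kinds within the cluster had 13 higher and a median of 0.055. Cluster medians per array were 7.41 and 7.43 in MTAC-P, against 7.41 and 7.12 in PC9, so PC9 replicate 1 lay with the MTAC-P arrays and PC9 replicate 2 below them.

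In the ZNF175 to ZNF331 cluster, 3 members (9.68%, against 28.3% of all tested genes) had non-overlapping arrays higher in MTAC-P, among them ZNF880, and 8 (25.8%, against 24.9%) lower, among them ZNF83, ZNF160, ZNF761 and ZNF331. The share of lower members was near the background. Of its 31 members, 16 were represented by _x_at or _s_at probe sets, so their values may not be independent of each other. With those suffixes left out, the cluster median was -0.095. The per-array medians were 6.32 and 5.66 in MTAC-P, against 6.86 and 6.26 in PC9, so MTAC-P replicate 1 lay above PC9 replicate 2 and the lines overlapped. Leaving out MTAC-P replicate 1 gave a cluster median of -0.50, and leaving out MTAC-P replicate 2 gave -0.11. Among the 8 tested genes of other kinds there, 3 were higher and 5 lower (median -0.042).

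The other 7 clusters with at least 5 members had medians between -0.20 and 0.075, and leaving out 1 array turned the sign of 4 of these medians. From ZNF557 to ZNF562 the median of -0.18 was 0.0088 without PC9 replicate 1. From ZNF554 to ZNF77 (0.063) it ranged from -0.11 to 0.16 when 1 array was left out, from ZNF302 to ZNF792 (-0.066) from -0.31 to 0.069, and from ZNF575 to ZNF296 (-0.030) from -0.088 to 0.0077. With no level filter the median from ZNF101 to ZNF429 (0.075) was -0.029, and that from ZNF653 to ZNF791 (-0.20) was -0.019. Lower members outnumbered higher ones from ZNF557 to ZNF562 (4 higher, 9 lower), from ZNF653 to ZNF791 (4 higher, 8 lower) and from ZNF565 to ZNF573 (6 higher, 10 lower). From ZNF575 to ZNF296 there were 11 of each. The clusters from ZNF554 to ZNF77, from ZNF101 to ZNF429 and from ZNF302 to ZNF792 had 5 members each, with 3, 3 and 2 higher. In the ZNF557 to ZNF562 cluster the 38 tested genes of other kinds had a median of 0.086, against -0.18 for its ZNF members.

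**Figure D4:**
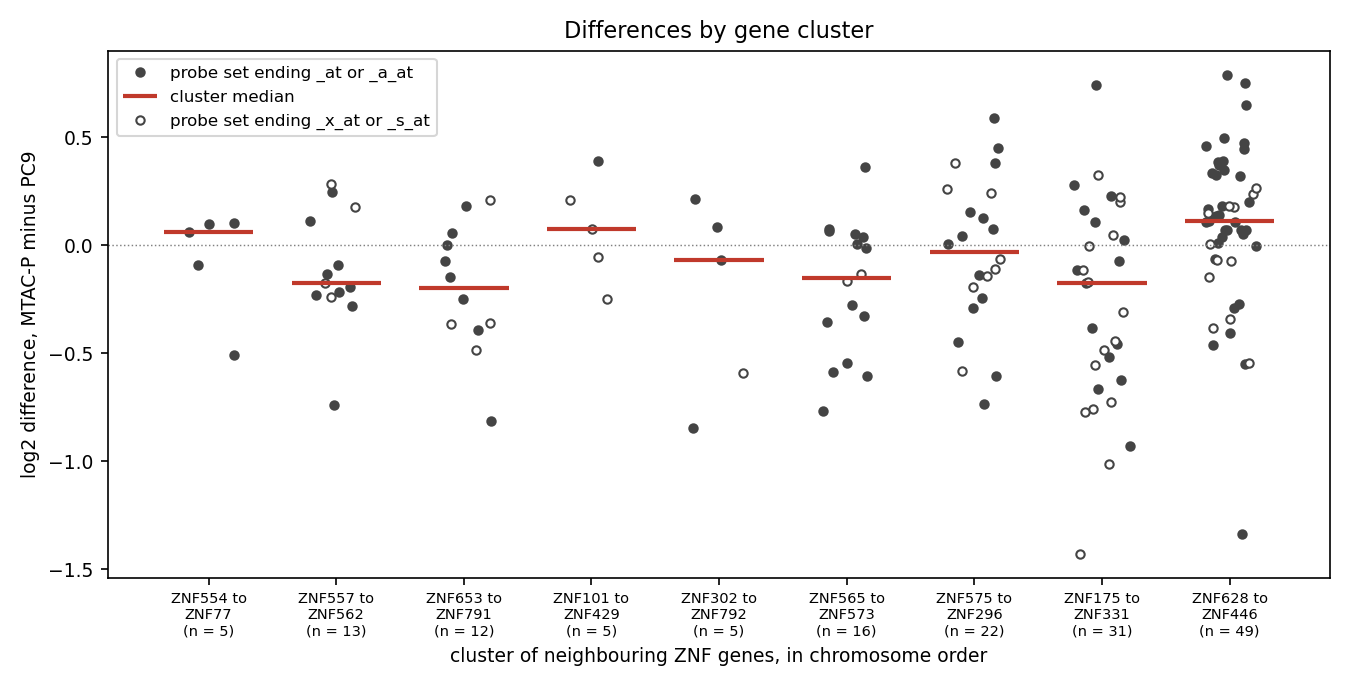
Log2 difference of MTAC-P minus PC9 (y axis) for the members of the 9 clusters with at least 5 members, in chromosome order along the x axis; filled points are probe sets ending in _at or _a_at, open points those ending in _x_at or _s_at, and red bars are cluster medians. The last cluster (ZNF628 to ZNF446) has a median of 0.11 and the one before it (ZNF175 to ZNF331) a median of -0.17.

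Members with cross-matching probe sets were more often lower than higher. Of the 52 represented by _x_at or _s_at probe sets, 19 were higher and 33 lower, and their median was -0.12. The 114 others had 64 higher and 50 lower and a median of 0.037. Of the 52, 16 lie in the ZNF175 to ZNF331 cluster, where 21 of 31 members were lower, so suffix and cluster overlap. The share over all tested genes with such probe sets is not given here. The part of cross-matching in the lower values was not tested.

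Members differed between duplicates about as much as between lines. Their median absolute difference was 0.23 between lines, 0.25 between the MTAC-P duplicates and 0.21 between the PC9 duplicates. Over all tested genes these were 0.22, 0.21 and 0.17. A line difference is between means of 2 arrays and a duplicate gap between single arrays, so the gap is wider for the same noise. The line difference exceeded the gap between the duplicates of both lines for 47 members, 28.3%, against 38.5% of all tested genes. Replicate 1 lay above replicate 2 for 101 members in MTAC-P (60.8%, against 47.2% of all tested genes) and for 109 in PC9 (65.7%, against 50.4%). The median of replicate 1 minus replicate 2 was 0.12 in MTAC-P and 0.11 in PC9, against -0.021 and 0.0026 over all tested genes. Replicate 1 was the higher one in both lines for 74 members, 44.6%, against 26.8% of all tested genes, and the lower one in both for 30.

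In the ZNF175 to ZNF331 cluster replicate 1 was higher for 24 of 31 members in MTAC-P and for 27 of 31 in PC9, with median gaps of 0.30 and 0.32. In MTAC-P the widest gaps were those of ZNF83 and of ZNF845, with 7.39 and 6.02 in MTAC-P, against 7.81 and 7.12 in PC9. ZNF114 went the other way, with 5.83 and 7.03 in MTAC-P, against 6.14 and 6.30 in PC9. In PC9 the widest gaps were those of ZNF880, ZNF567 and ZNF468. ZNF567 had 4.84 and 4.23 in MTAC-P, against 5.18 and 4.22 in PC9, and ZNF468 had 6.66 and 5.80 in MTAC-P, against 7.42 and 6.50 in PC9. The lines overlapped for ZNF845, ZNF114, ZNF567 and ZNF468.

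The duplicate gaps of the lines had a Pearson's r of 0.38 over the 166 members and 0.28 over all tested genes, as a description of genes that share these 4 arrays. It was 0.49 over the 196 ZNF genes on other chromosomes and 0.20 over the 929 other chromosome 19 genes, so it was not particular to the members. The log2 difference of the 3' over the 5' probe sets of ACTB, a measure of RNA integrity, was 1.51 and 1.75 on the MTAC-P arrays and 1.71 and 2.49 on the PC9 arrays, higher on replicate 2 in both lines. That of GAPDH was -0.090 and -0.069 on the MTAC-P arrays and -0.057 and 0.038 on the PC9 arrays. The part of RNA integrity in the duplicate gaps was not tested.

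**Figure D5:**
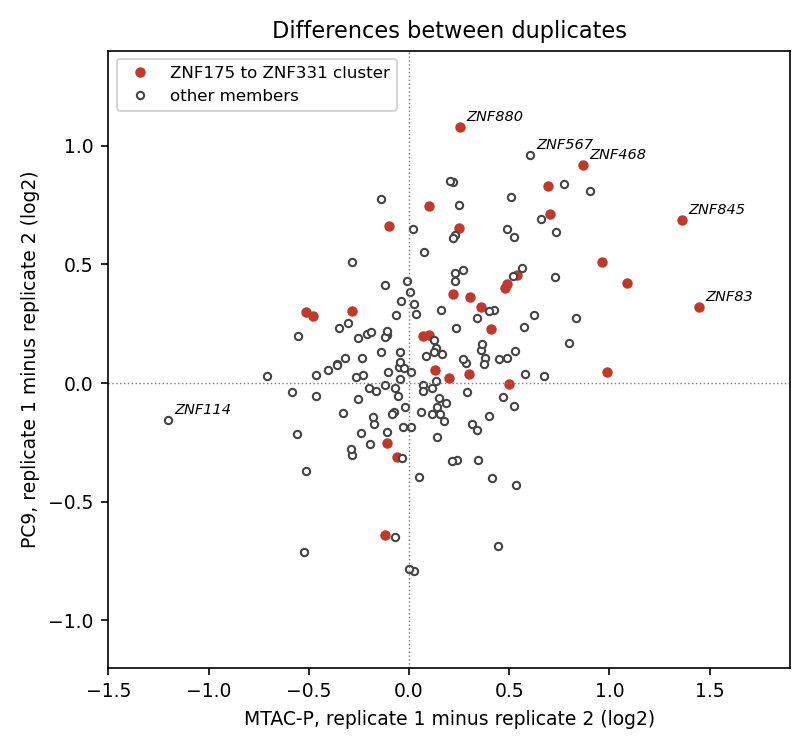
Replicate 1 minus replicate 2 in MTAC-P (x axis) against replicate 1 minus replicate 2 in PC9 (y axis), both on the log2 scale, for the 166 members; filled points are the 31 members from ZNF175 to ZNF331, and the genes with the widest gaps are named. More points (74) lie in the upper right, where replicate 1 is higher in both lines, than in the lower left (30). Over all 14970 tested genes, replicate 1 was higher in both lines for 4008 and lower in both for 4366.

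Some letters that the choice of members did not use were more frequent in member promoters than over all tested genes. RefSeq windows on GRCh38.p14, from 250 bases before to 50 after the first listed start of each gene, were found for 148 of the 166 members. They were searched on both strands for 5 motifs. The letters ACTACA followed after any 3 bases by CCC, part of the sequence bound by ZNF143, were in 40 of the 148 windows, 27.0%, against 4.05% of the 12036 tested genes with a window, 3.73% of 778 other chromosome 19 genes and 2.36% of all 27305 genes of the table. The motif CCGGAAG, the core of sites bound by ETS factors, was in 62 windows, 41.9%, against 16.5% of tested genes and 13.8% of other chromosome 19 genes. The share with the TATA box letters TATAAA was 1.35%, against 7.29% of tested genes and 12.0% of the whole table. Most member windows lacked the ZNF143 letters, and most lacked the ETS letters. Many neighbouring members arose as copies of each other, so their windows are not independent. ZNF genes on other chromosomes were not set apart in this search, so the shares may not be particular to the members.

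The remaining motifs were near the background of tested genes. GGGCGG, the GC box, was in 68.2% of member windows, against 64.8% of tested genes and 44.6% of the whole table, and GCGC, any base, then TGCGC, bound by NRF1, in 12.2%, against 10.1% and 6.28%. The median GC content was 61.3% for members, against 64.3% for tested genes. The ZNF143 letters were unevenly placed along the chromosome, in 18 of 44 windows from ZNF628 to ZNF446 and 10 of 19 from ZNF575 to ZNF296, but in 1 of 26 from ZNF175 to ZNF331 and 0 of 12 from ZNF653 to ZNF791. Members with the ZNF143 letters were higher in 18 of 40 cases (median -0.065), and those without in 54 of 108 (median 0.00080). For the ETS letters the medians were -0.0016 with and -0.032 without. These differences were not tested.

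The windows of the 2 members with the largest positive and the 2 with the largest negative non-overlapping differences are printed to show their promoters side by side, followed by 2 lower members whose windows hold both the ZNF143 and the ETS letters. ZNF71 (chr19:56595052-56595351, plus strand) has 70.0% GC, and ZNF416 (chr19:57578862-57579161, minus strand) has 59.0%. ZNF83 (chr19:52690447-52690746, minus strand) has 65.7% GC, and ZNF805 (chr19:57240382-57240681, plus strand) has 62.7%. ZNF180 (chr19:44500473-44500772, minus strand) and ZNF606 (chr19:58002771-58003070, minus strand), chosen after their sequences and values were seen, have 69.3% and 72.0%. Sequences run 5′ to 3′ on the gene's strand, and capitals mark matches to any of the 5 motifs on either strand. ZNF416, ZNF180 and ZNF606 carry both the ZNF143 and the ETS letters, ZNF805 carries the ETS letters beside 2 GC boxes, ZNF83 has 3 GC boxes, and ZNF71 has the NRF1 letters and a GC box.
ZNF71: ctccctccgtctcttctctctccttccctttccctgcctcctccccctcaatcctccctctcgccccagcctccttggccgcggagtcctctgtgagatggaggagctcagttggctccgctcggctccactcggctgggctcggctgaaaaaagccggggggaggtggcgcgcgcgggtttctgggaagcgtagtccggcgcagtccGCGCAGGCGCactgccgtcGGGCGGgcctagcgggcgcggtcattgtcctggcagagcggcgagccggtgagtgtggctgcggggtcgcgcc
ZNF416: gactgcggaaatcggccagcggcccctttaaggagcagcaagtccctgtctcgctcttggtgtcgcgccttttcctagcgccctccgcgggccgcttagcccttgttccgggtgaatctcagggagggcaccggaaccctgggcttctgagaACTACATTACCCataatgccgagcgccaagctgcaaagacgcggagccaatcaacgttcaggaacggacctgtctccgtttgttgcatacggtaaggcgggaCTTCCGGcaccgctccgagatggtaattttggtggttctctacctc
ZNF83: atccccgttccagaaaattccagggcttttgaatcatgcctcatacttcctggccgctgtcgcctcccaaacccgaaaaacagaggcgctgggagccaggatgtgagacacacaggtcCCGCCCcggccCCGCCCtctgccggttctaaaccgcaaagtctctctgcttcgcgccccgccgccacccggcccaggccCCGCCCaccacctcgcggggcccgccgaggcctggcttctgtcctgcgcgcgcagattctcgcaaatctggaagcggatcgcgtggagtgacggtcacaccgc
ZNF805: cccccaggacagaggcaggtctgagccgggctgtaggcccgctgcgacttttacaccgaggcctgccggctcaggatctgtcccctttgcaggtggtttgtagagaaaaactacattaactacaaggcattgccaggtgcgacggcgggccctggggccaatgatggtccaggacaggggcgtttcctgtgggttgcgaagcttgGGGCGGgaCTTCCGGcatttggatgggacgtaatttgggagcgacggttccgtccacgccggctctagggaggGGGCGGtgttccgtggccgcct
ZNF180: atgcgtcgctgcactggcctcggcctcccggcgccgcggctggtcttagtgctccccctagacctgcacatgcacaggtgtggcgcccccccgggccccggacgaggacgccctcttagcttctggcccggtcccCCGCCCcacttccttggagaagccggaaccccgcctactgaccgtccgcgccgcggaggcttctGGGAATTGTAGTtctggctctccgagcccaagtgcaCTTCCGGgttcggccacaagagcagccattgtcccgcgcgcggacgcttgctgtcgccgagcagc
ZNF606: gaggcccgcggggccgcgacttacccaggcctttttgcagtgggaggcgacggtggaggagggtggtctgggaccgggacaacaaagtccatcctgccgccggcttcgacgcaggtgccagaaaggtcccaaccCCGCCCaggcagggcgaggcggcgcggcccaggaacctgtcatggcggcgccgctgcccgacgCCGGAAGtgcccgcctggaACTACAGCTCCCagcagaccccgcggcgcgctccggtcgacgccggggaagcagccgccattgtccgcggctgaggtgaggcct

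ZNF180 had 6.33 and 5.67 in MTAC-P, against 7.08 and 6.39 in PC9, a difference of -0.73 with only a small gap between the nearest arrays of the lines. ZNF606 had 6.75 and 6.22 in MTAC-P, against 6.99 and 7.08 in PC9, a difference of -0.55. Neither passed the test.

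A list of KRAB co-repressor and heterochromatin genes also had no gene past the test. Of 31 genes, among them those of TRIM28, SETDB1, HP1, HUSH, DNA methylation and histone methylation machinery and heterochromatin genes such as ATRX, 30 were tested. The list includes ZNF274, which is also a member, so the lists overlap. An unadjusted limma p under 0.05 was reached by 11, or 36.7%, against 18.9% of all tested genes, of which 3 (10.0%, against 7.76%) were higher and 8 (26.7%, against 11.1%) lower in MTAC-P. The median difference of the 30 was 0.0035, with 16 higher and 14 lower. The list was chosen with earlier results of these data known and is no independent evidence.

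TRIM28, the scaffold that KRAB domains bind, had 11.17 and 11.02 in MTAC-P, against 10.80 and 11.00 in PC9. The lowest MTAC-P array was only just above the highest PC9 array, and the difference was 0.20 (95% interval -0.20 to 0.60). SETDB1, which methylates histone H3 at lysine 9, had 7.87 and 7.87 in MTAC-P, against 7.25 and 7.50 in PC9, a difference of 0.49 (SE 0.16, limma adjusted p = 0.197). ATF7IP, the partner that stabilises SETDB1, had 7.37 and 6.38 in MTAC-P, against 7.94 and 7.62 in PC9, a difference of -0.91 that was -0.41 without MTAC-P replicate 2. ATRX, a chromatin remodeller of heterochromatin, had 6.35 and 5.95 in MTAC-P, against 7.40 and 7.19 in PC9. Its difference of -1.15 (SE 0.20, limma adjusted p = 0.101) was the largest of the list and lay between -1.35 and -0.95 when 1 array was left out.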

How the data were processed

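The authors deposited 1 table of log2 expression values, 1 per probe set and array, for 2 MTAC-P and 2 PC9 arrays. Their range, 3.32 to 14.63, is that of log2 values; background correction, normalization and summarization are not given in the sources used here. The labels' protocols name a one-colour Agilent kit with Cy3, and Agilent Feature Extraction is listed per the submitters' processing notes, whereas the probe-set names are of Affymetrix type. The table has no detection calls, and the number of arrays limits the precision. Of 49386 probe sets, 45253 had 1 symbol, 1327 several, 2713 none here and 93 were controls. Symbols were updated by gene identifier to GRCh38.p14.

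Genes were taken as their probe set with the highest mean, with a filter at the 25th percentile, and MTAC-P was set against PC9 in R 4.3.3 by limma 3.58.1 (eBayes moderation, 2-sided, adjusted over 14970 genes), whose script was tested on simulated data. SE is limma's moderated standard error. The members, lists and naming rule were chosen with earlier results of these data known. Named were the 10 members with the largest non-overlapping difference each way, the 5 with the highest mean, the 3 widest duplicate gaps per line, 3 on each side of the filter, cluster ends, TRIM28, SETDB1, ZNF274 and the 2 largest differences of the co-repressor list. Protein sequences were not used here. Promoter windows are from RefSeq (GRCh38.p14). Python 3.11.15 with matplotlib 3.10.9 drew the figures.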

Additional observations from a re-analysis of the deposited data

How the results depend on the processing

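Results were recomputed under 17 alternative settings. Among the settings that kept all 4 arrays, 0 members passed limma's adjusted p threshold, except with the replicate number as a block. With the block it was 27 of the 166 members, and 2079 of the 14970 tested genes, against 3 without it. The share of the members past the threshold was thus near that of all tested genes. The count of members at an unadjusted limma p under 0.05 was 49 (29.5%) with the block, against 26.8% of all tested genes. The labels do not say that a number marks a shared culture or day, and over all tested genes the deviations of same-numbered arrays had r = 0.28. With only 2 pairs the numbers were not taken as pairing the arrays. Leaving out 1 array moved the count at an unadjusted p under 0.05 between 13 and 42 and the members' median between -0.071 and 0.00083. That median lay between -0.071 and 0.029 over all settings, within the spread of 0.19 between duplicates. Of 28 named members, 25 kept their sign under the settings that gave a value. ZNF274 differed by -0.0093 with centring on the median and by -0.12 to 0.13 when 1 array was left out, below 0 without MTAC-P replicate 2 or PC9 replicate 2. ZNF114 differed by -0.047 with _x_at and _s_at probe sets left out and by -0.39 to 0.81 when 1 array was left out, below 0 without MTAC-P replicate 2. ZNF567 differed by -0.65 to 0.31 when 1 array was left out, above 0 without MTAC-P replicate 2 (0.14) or PC9 replicate 1. The cause of these changes was not tested. Taking any listed start of a gene for the promoter window, added after seeing the data, gave the ZNF143 letters in 29.1% of members and 4.51% of tested genes, and the ETS letters in 44.6% and 19.2%. Many members lie near the level filter, where a log2 difference understates a change.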
